A study of Mus musculus with 12 samples.

Results

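The 57 probe sets described here belong to 5 families of oxidizing and hydrolyzing enzymes of the liver, the alcohol dehydrogenases (Adh), aldehyde dehydrogenases (Aldh), aldehyde oxidases (Aox), flavin-containing monooxygenases (Fmo) and carboxylesterases (Ces). They were chosen by symbol alone, as every probe set of the array that is paired with exactly 1 symbol and whose symbol starts with one of these family names and a digit. They stand for 53 of the 19938 genes tested, and are 57 of the 21789 probe sets tested: 8 of Adh, 23 of Aldh, 4 of Aox, 5 of Fmo and 17 of Ces. The cells were primary hepatocytes (mouse HPC) of male C57BL/6 mice, isolated with collagenase, plated on collagen and kept for 24 h in a serum-free hepatocyte medium that was exchanged 1 h before stimulation. They were measured on 12 Affymetrix Mouse Gene 1.0 ST arrays, with 3 arrays for each of 20 min, 2 h and 4 h of recombinant human TGF-β1 at 1 ng/mL and 3 arrays of untreated cells at 0 min, to follow how the cytokine changes gene expression over time. As the untreated arrays are all of 0 min, treatment and time since the medium exchange cannot be told apart. The 3 samples of a time point are biological replicates per the methods of the study, but the sources used here do not say which animal each came from.

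These families act on alcohols, aldehydes, esters and drugs. An alcohol dehydrogenase turns an alcohol such as ethanol or retinol into an aldehyde, and an aldehyde dehydrogenase turns the aldehyde into an acid, with NAD or NADP as cofactor. Several aldehyde dehydrogenases are dedicated steps in the breakdown of amino acids, of choline derivatives or of folate. Aldehyde oxidases are molybdenum and flavin enzymes that use water and oxygen in place of NAD, flavin-containing monooxygenases add oxygen to nitrogen and sulfur atoms of drugs and amines, and carboxylesterases split ester bonds of drugs and lipids. Members of all 5 families are known for high expression in the parenchymal cells of the liver.

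Levels are log2 signals after robust multi-array averaging (RMA), so that a difference of 1 is a 2-fold difference. The median level over all probe sets tested was 7.23, and 38 of the 57 members lay at or above it on the mean of the 12 arrays. The median of single arrays lay between 6.82 and 6.93. Each later time point was set against 0 min in the same replicates with limma, a linear model with moderated variances that held time and replicate number as factors. A probe set was called at an adjusted p (Benjamini-Hochberg over all 21789 probe sets) under 0.05. All 6 genes checked for the TGF-β response (Pmepa1, Ccn2, Thbs1, Skil, Smad6 and Tgfbr1) were called higher at 4 h, with a median log2 change of 1.39. The mean level of 8 hepatocyte markers lay between 13.67 and 13.69 in the 4 h arrays, and between 13.72 and 13.78 in the 0 min arrays. Of these 8 markers 1 was called lower, the tyrosine aminotransferase Tat at -0.31 (limma, adjusted p = 0.0463), and the urea cycle enzyme Cps1 had -0.27 (0.0518). Of 14 Kupffer cell and macrophage markers, 8 were called lower at 4 h, against 3.02% of all probe sets tested. The mean level of the 14 was 7.60 to 7.69 at 4 h and 8.03 to 8.15 at 0 min, and 6 of them reached the median level. Of 10 stellate cell, 8 endothelial and 5 cholangiocyte markers, 1, 1 and 0 were called lower and 0 higher. The part of these other cells in the results given here was not tested, and fewer cells of a type and less RNA per cell cannot be told apart in bulk samples.

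Replicate 1 stood apart from replicates 2 and 3 at every time point. In 7 of the 57 members (12.3%) its level was at least 2-fold above the mean of the other replicates at all 4 time points, against 0.808% of all probe sets tested, and in 0 members it was as far below (0.234% of all). Replicate 1 is therefore paired with itself in each change given here, and results are also given without it.

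After 4 h of TGF-β1, 7 of the 57 members (12.3%) were called lower than in untreated cells, against 3.02% of all probe sets tested. They were the aldehyde oxidase Aox3, the aldehyde dehydrogenases Aldh6a1, Aldh8a1 and Aldh1l1, the monooxygenase Fmo5, and the carboxylesterases Ces2a and Ces3a. None of the 57 was called higher by limma, where 1.57% of all probe sets were, and 0 members were higher at an unadjusted p under 0.05 (7.54% of all). At an unadjusted p under 0.05, 24 members (42.1%) were lower, against 9.49% of all. Of the members, 25 (43.9%) were lower in 3 of 3 replicates and 1 (1.75%) was higher in 3 of 3, while the same held for 17.4% and 18.2% of all probe sets. The median log2 change of the members at 4 h was -0.11, and in replicates 1, 2 and 3 taken singly it was -0.20, -0.12 and -0.09. The median over all probe sets tested was 0.02.

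By their mean over the 12 arrays, the 7 called members were among the 38 that reached the median level (18.4% of them), where 5.43% of all probe sets with such a level were called lower. Aox3 reached it through replicate 1 alone, as its replicates 2 and 3 stayed at or below 6.93 in every array. Of these 38 members, 34 had a change below 0, and their median was -0.24, beside a median of 0.00 over all probe sets that reached that level. Of the 19 members with a lower signal, 0 were called in limma, against 0.597% of all probe sets below the median. Their mean levels lay between 5.26 and 7.20 and their changes between -0.16 and 0.26.

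The number of called members rests on the replicate factor and on single replicates. Without replicate 1, limma called 4 members lower, Aox3, Aldh6a1, Ces2a and, in addition, Aox1, where 2.26% of all probe sets were called lower. Without replicate 2 or without replicate 3 it called 0 members, with 0.33% and 0.0734% of all probe sets, and with no replicate block it also called 0, with 0.0872% of all. With the replicate block as a random effect it called 0 members as well, with 0.624% of all, and the adjusted p of the 7 was then between 0.207 and 0.872. The changes of the 7 called members stayed below 0 under each of these settings, but this could not have come out otherwise. The replicate block does not alter the estimate here, and each of the 7 was lower in 3 of 3 replicates. In each of the 7, the 4 h and untreated levels overlapped, since replicate 1 at 4 h lay above replicates 2 and 3 of untreated cells, while within each replicate the 4 h array was the lower one.

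**Figure D1:**
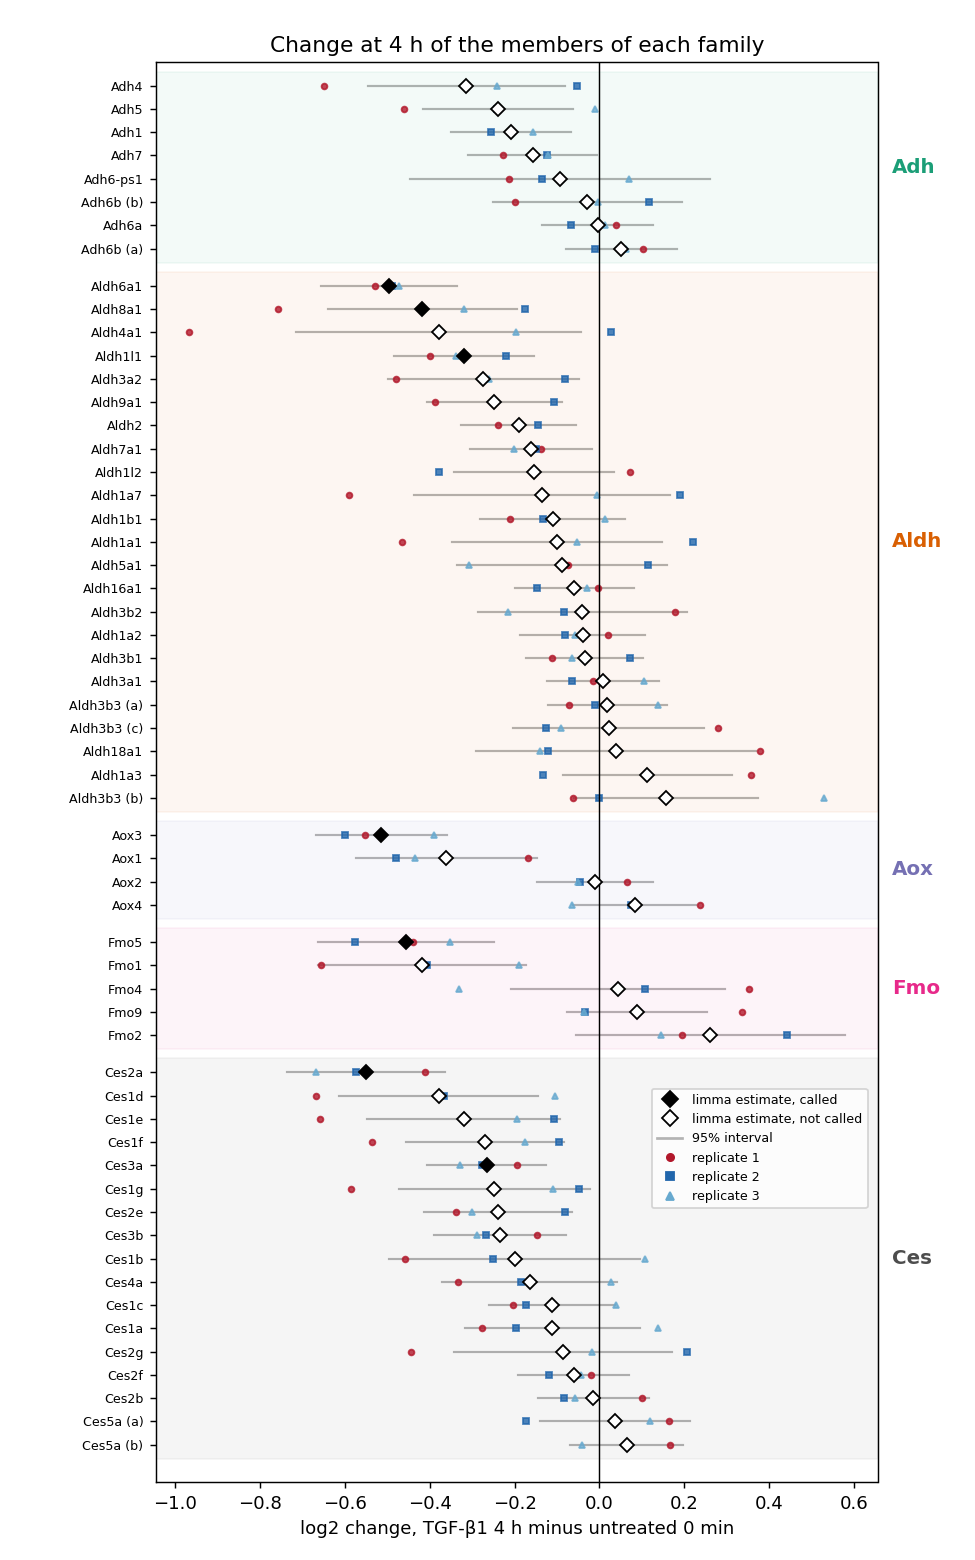
Log2 change of each member at 4 h with TGF-β1 minus 0 min untreated, by family. Diamonds are limma estimates (filled where called at an adjusted p under 0.05), lines their 95% intervals, and small symbols the differences in replicates 1, 2 and 3. Letters in brackets set apart the probe sets of a gene. The 7 filled diamonds all lie below 0, between -0.55 and -0.27, and the member farthest above 0 is Fmo2 at 0.26.

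Of the aldehyde oxidases, mouse liver is known to use mainly Aox1 and Aox3, whose genes are direct neighbours on chromosome 1, followed by Aox4 and Aox2, which are known from the Harderian gland and the nasal mucosa. Aox3 had log2 signals of 10.83, 6.32 and 6.46 in replicates 1, 2 and 3 after 4 h, against 11.39, 6.92 and 6.85 in untreated cells. Each replicate was lower at 4 h, but the level of replicate 1 was far above that of the others, so that the groups overlap when the pairing is set aside. The paired changes were -0.55, -0.60 and -0.39, and limma gave a log2 change of -0.51 ± 0.07 (SE, adjusted p = 0.00334), the lowest adjusted p of the members.

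Aox3 was not called at the earlier times. Its changes from 0 min were -0.17 at 20 min and -0.02 at 2 h, with standard errors of 0.07 each. Between 2 h and 4 h it fell by 0.49, with differences of -0.61, -0.39 and -0.48 in the 3 replicates (limma, adjusted p = 0.0393). Aox3 was the 1 member called lower in that comparison (0.0275% of all probe sets were), and 0 members were called higher in limma (0.0505% of all). This call between 2 h and 4 h is lost without any one of the 3 replicates.

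Aox1 had a smaller change, most of which was there at 20 min. Its log2 signals were 9.62, 9.27 and 9.31 at 4 h and 9.79, 9.74 and 9.75 in untreated cells, so that all 4 h arrays lay below all untreated ones. The change was -0.25 at 20 min, -0.22 at 2 h and -0.36 at 4 h, with a standard error of 0.10, and did not pass at 4 h (limma, adjusted p = 0.0624). Without replicate 1, whose 2 h array stood at 9.82 against 9.38 and 9.44 in the others, the value at 4 h was -0.46 and was called (limma, adjusted p = 0.00783). Aox2 and Aox4 had low signals, between 6.72 and 6.87 and between 5.72 and 5.98 over all arrays, and changes of -0.01 and 0.08.

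The level of Aox3 also set replicate 1 apart more than that of any other member. In untreated cells its signal in replicate 1 was 22.7-fold that of the other replicates, a gap of 4.50 on the log2 scale that ranked 6 of the 21789 probe sets, and the gap was 4.45 to 4.63 over the 4 time points. In replicates 2 and 3 the probe set lay at or below 6.93, under the median level of 7.23. The signals of its neighbour Aox1 in untreated cells differed by no more than 0.04 between the 3 replicates. What sets the replicates apart in Aox3 was not tested.

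The promoters of this gene pair are shown because the neighbours had unlike values in both respects. Each window holds 250 bases before and 50 after the start of the gene, read 5′ to 3′ on the plus strand of GRCm38.p6 from RefSeq, at chr1:58029719-58030018 for Aox1 and chr1:58112886-58113185 for Aox3. Capitals mark matches on either strand to the SMAD box CAGAC or to the AP-1 site TGANTCA, the motifs searched for factors that act downstream of TGF-β, and no letter of one match lies in another.
Aox1: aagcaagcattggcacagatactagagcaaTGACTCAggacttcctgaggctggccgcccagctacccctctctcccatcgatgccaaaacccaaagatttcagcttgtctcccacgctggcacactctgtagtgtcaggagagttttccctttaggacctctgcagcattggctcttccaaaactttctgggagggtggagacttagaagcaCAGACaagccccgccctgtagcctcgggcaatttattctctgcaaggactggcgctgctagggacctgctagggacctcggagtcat
Aox3: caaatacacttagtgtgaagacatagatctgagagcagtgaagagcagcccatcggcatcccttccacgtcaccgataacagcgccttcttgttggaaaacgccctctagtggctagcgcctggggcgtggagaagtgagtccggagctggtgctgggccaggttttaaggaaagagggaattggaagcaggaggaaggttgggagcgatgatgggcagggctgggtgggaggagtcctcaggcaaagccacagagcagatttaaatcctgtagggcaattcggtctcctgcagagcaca
The window of Aox1 holds 1 match to each of these motifs and that of Aox3 holds 0 of either. The SMAD box is in 49.6% and the AP-1 site in 7.81% of all 32851 promoter windows, so a match by itself is common.

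Of the 23 aldehyde dehydrogenase members, 3 were called lower at 4 h and 0 higher, and the family's median change was -0.10. The 3 act in the breakdown of valine, of tryptophan and of formylated folate. Aldh6a1, the mitochondrial methylmalonate-semialdehyde dehydrogenase of valine and thymine breakdown, had log2 signals of 11.25, 10.28 and 10.26 at 4 h, against 11.78, 10.77 and 10.73 in untreated cells. Its paired changes were nearly equal, -0.53, -0.49 and -0.47, and limma gave -0.50 ± 0.07 (SE, adjusted p = 0.00452), or 0.709 of the untreated level. At 20 min and 2 h the change was -0.21 and -0.14.

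Aldh8a1, known in humans to oxidize 2-aminomuconate semialdehyde in the kynurenine pathway of tryptophan and also retinal, had log2 signals of 9.90, 9.50 and 9.28 at 4 h and 10.66, 9.68 and 9.60 in untreated cells. All replicates were lower, but replicate 1 fell by 0.76 and the other replicates by 0.18 and 0.32. The estimate was -0.42 ± 0.10 (SE, adjusted p = 0.0410 in limma), and it was -0.25 and not called when replicate 1 was left out (limma, adjusted p = 0.164).

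Aldh1l1, the cytosolic 10-formyltetrahydrofolate dehydrogenase, had log2 signals of 12.06, 11.18 and 11.13 at 4 h and 12.46, 11.40 and 11.47 in untreated cells. The change was -0.32 ± 0.08 (SE, adjusted p = 0.0358 in limma), lower in 3 of 3 replicates, and at 2 h it was -0.04. Aldh1l2, the mitochondrial enzyme of the same reaction, had a low signal of 5.85 ± 0.16 at 4 h and 6.01 ± 0.09 in untreated cells (SD, n = 3 each).

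Other Aldh members with a known role in the liver lay below 0 without being called. Aldh9a1, which makes the carnitine precursor trimethylaminobutyrate, had a change of -0.25 (limma, adjusted p = 0.0834), with 11.33, 11.36 and 11.31 at 4 h all below the 11.72, 11.47 and 11.56 of untreated cells. Aldh2, the mitochondrial enzyme that clears acetaldehyde, had 12.28, 12.23 and 12.25 at 4 h, against 12.51, 12.37 and 12.43 in untreated cells, a change of -0.19 (limma, adjusted p = 0.118). Aldh7a1, the aminoadipate-semialdehyde dehydrogenase of lysine breakdown, had a change of -0.16 ± 0.07 (SE), with -0.14, -0.15 and -0.20 in the replicates. In these genes the untreated and 4 h levels differed in the same direction in every replicate, but by too little to pass over all probe sets.

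Aldh4a1, the pyrroline-5-carboxylate dehydrogenase of proline breakdown, had a change of -0.38, but its replicates differed by -0.97, 0.03 and -0.20 (limma, adjusted p = 0.225). Its level in untreated cells was 10.06, 7.71 and 7.94, so the replicate with the high level was also the one with the large change. Aldh1a1, which oxidizes retinal to retinoic acid, and its close relative and neighbour Aldh1a7, whose probes may share signal with it, had the opposite sign at 2 h. Aldh1a1 was 0.36 above untreated cells at 2 h, with 12.18, 11.07 and 10.69 against 12.11, 10.32 and 10.43 (limma, adjusted p = 0.479), and its change was -0.10 at 4 h. Aldh1a7 stood at 0.28 at 2 h and -0.14 at 4 h.

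The largest positive change of the family was that of 1 of the 3 probe sets of Aldh3b3, at 0.16 ± 0.10 (SE). It came from replicate 3, with 0.53, while replicate 1 had -0.06 and replicate 2 had -0.00, and the other probe sets of this gene had 0.02 each. Aldh3b3 lies next to its near-identical copy Aldh3b2, and a probe set paired with both symbols, which is no member, had a change of -0.14 ± 0.14 (SE).

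Many genes that act before or after these aldehyde dehydrogenases were lower at 4 h as well. Of 21 measured genes of amino acid, carnitine and choline breakdown, 10 were called lower and 0 higher, with a median change of -0.33, beside the 3.02% and 1.57% of all probe sets and the median of 0.02. Of these 21 genes, 20 reached the median level, where 5.43% of all probe sets were called lower. On the valine route the genes called lower were Bckdha and Bckdhb, subunits of the branched-chain ketoacid dehydrogenase, at -0.45 and -0.39, Hibadh, which makes the substrate of Aldh6a1, at -0.31, and after it Pcca at -0.41 and the mutase Mmut at -0.43 (limma, adjusted p from 0.00628 to 0.0444). Kmo, at -0.42, and Haao, at -0.37, stand before Aldh8a1 in the kynurenine pathway. Sardh, at -0.46, and Dmgdh, at -0.29, break down choline derivatives, and Prodh2, at -0.36, oxidizes hydroxyproline. In the folate list around Aldh1l1, 1 of 19 genes was called higher, the purine synthesis enzyme Atic at 0.33, and 0 were called lower in limma, with a median of 0.05. These lists were chosen with results of these data known and are a description.

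None of the 8 alcohol dehydrogenase probe sets was called at 4 h in limma, and 4 of them (Adh1, Adh4, Adh5 and Adh7) had an unadjusted p under 0.05, each lower in 3 of 3 replicates. The family's median change was -0.13, and its genes lie in 1 row on chromosome 3. Adh1, the class I enzyme for ethanol and retinol, had 13.65, 13.22 and 13.32 at 4 h and 13.86, 13.48 and 13.47 in untreated cells, a change of -0.21 ± 0.06 (SE, adjusted p = 0.102 in limma). Adh4, the class II enzyme, had 10.49, 9.06 and 8.73 at 4 h and 11.14, 9.12 and 8.98 in untreated cells. Its change of -0.31 (limma, adjusted p = 0.134) came mainly from replicate 1, with -0.65, against -0.05 and -0.24 in the others. Adh5, which handles formaldehyde bound to glutathione, had a change of -0.24 (limma, adjusted p = 0.136). The largest positive change was 0.05, in 1 of the 2 probe sets of Adh6b, a low signal whose probes may be shared with the close copy Adh6a.

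The 5 flavin-containing monooxygenases had changes of both signs, and their median at 4 h was 0.04. It was -0.42 over the 3 of them that reached the median level, Fmo5, Fmo1 and Fmo4, the last with a change of 0.04. Fmo5, a liver enzyme known in humans to oxidize ketones rather than amines, had log2 signals of 11.30, 9.65 and 9.61 at 4 h and 11.74, 10.23 and 9.96 in untreated cells. It fell by 0.44, 0.58 and 0.35, and limma gave -0.46 ± 0.09 (SE, adjusted p = 0.0212), or 0.729 of the untreated level. Fmo1, which oxidizes many amine drugs, had 10.74, 10.14 and 10.24 at 4 h and 11.39, 10.55 and 10.43 in untreated cells, a change of -0.42 that was not called (limma, adjusted p = 0.0603).

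Fmo2, known as the monooxygenase of the lung, was the 1 member that was higher in 3 of 3 replicates at 4 h. Its log2 signals were 6.09, 7.10 and 6.98 at 4 h and 5.90, 6.66 and 6.83 in untreated cells, a change of 0.26 ± 0.15 (SE, adjusted p = 0.406 in limma). The change was 0.36 at 20 min and 0.50 at 2 h, where replicate 2 stood 1.09 above its untreated array and the others 0.27 and 0.14. By its mean over the arrays Fmo2 lay below the median level, and so did all its signals given here for 0 min and 4 h. In replicate 1 its signal lay below that level in all 4 arrays. Fmo4 and Fmo9 had changes of 0.04 and 0.09.

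All 15 carboxylesterase members of the groups Ces1 to Ces4 lay below 0 at 4 h and both probe sets of Ces5a above it, and the family's median was -0.20. Over all 21789 probe sets tested, 9373 lay below 0. Of the 17 Ces members, 9 were lower in 3 of 3 replicates, against 17.4% of all probe sets. Ces2a, an endoplasmic reticulum esterase for acylglycerols and drugs, had the largest change of the members. Its log2 signals were 10.20, 9.53 and 9.41 at 4 h, against 10.61, 10.10 and 10.07 in untreated cells. Limma gave -0.55 ± 0.08 (SE, adjusted p = 0.00552), lower in 3 of 3 replicates, which is 0.683 of the untreated level.

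The level of Ces2a was lower in 3 of 3 replicates at the earlier times too. It stood at -0.34 after 20 min, with -0.18, -0.41 and -0.43 in the replicates, and at -0.38 after 2 h, with -0.09, -0.59 and -0.46. Neither was called (limma, adjusted p = 0.310 and 0.227). With replicate 1 left out, the value at 2 h was -0.53 and was called (limma, adjusted p = 0.0406), the 1 such call among the members at this time.

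Ces3a, known as an esterase of the male mouse liver, had log2 signals of 13.31, 12.21 and 12.16 at 4 h and 13.50, 12.49 and 12.49 in untreated cells, a change of -0.27 ± 0.06 (SE, adjusted p = 0.0397 in limma). Its neighbour Ces3b had a change of -0.23 (limma, adjusted p = 0.0938), also in 3 of 3 replicates. Probe sets of these near-identical neighbours may pick up each other's transcripts, so their changes are not independent.

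The same limit holds for the 7 Ces1 members, which lie in 1 row on chromosome 8. All 7 were below 0 at 4 h, with a median of -0.25, 4 of them in 3 of 3 replicates, and 0 were called in limma. Ces1d, known as a triacylglycerol hydrolase that feeds lipoprotein assembly, had a change of -0.38, with -0.67, -0.37 and -0.10 in the replicates (limma, adjusted p = 0.0746). Ces1c, a carboxylesterase secreted into mouse plasma, had 13.50, 13.48 and 13.57 at 4 h and 13.70, 13.65 and 13.53 in untreated cells, so that its change of -0.11 did not hold in replicate 3. The groups Ces2 (5 members) and Ces3 (2 members) had medians of -0.09 and -0.25, and Ces5a, an esterase of the epididymis, had 0.04 and 0.06 at a low signal.

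**Figure D2:**
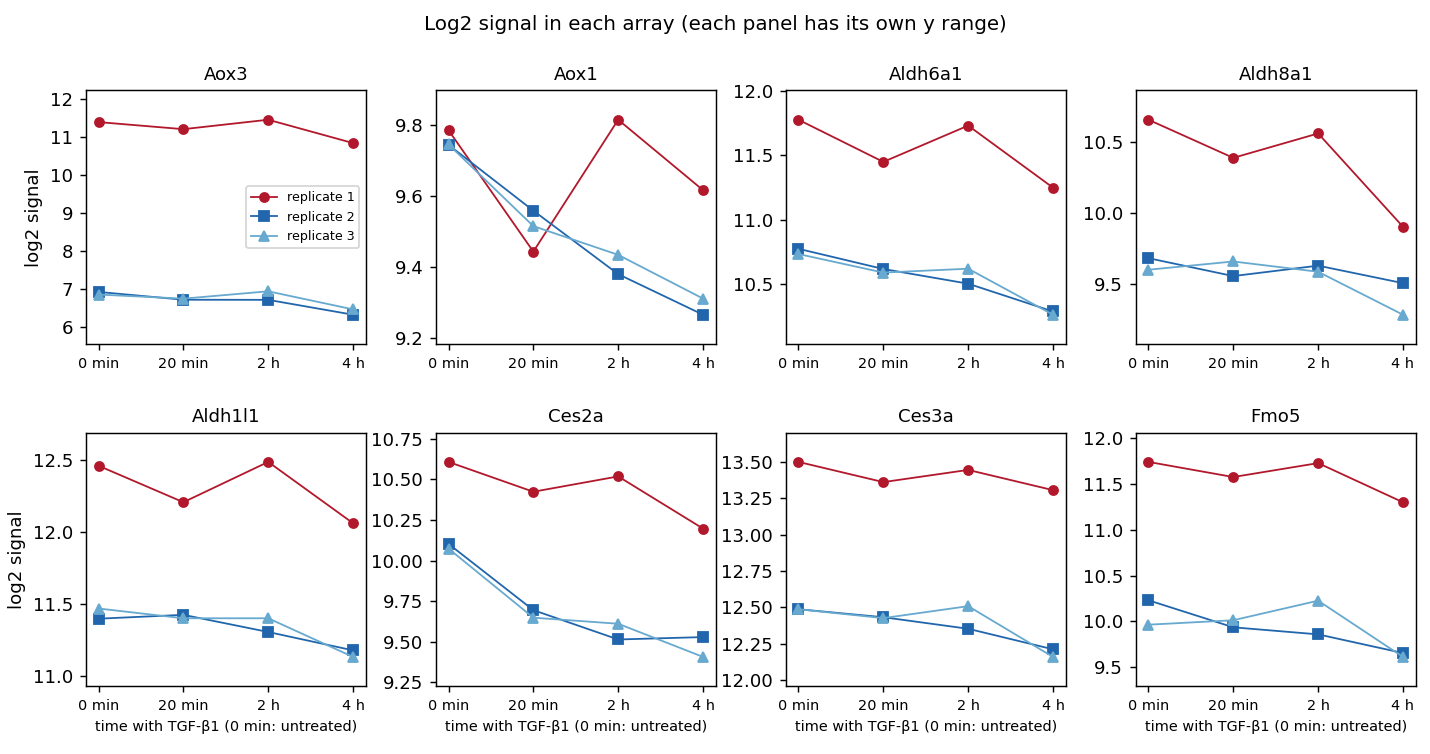
Log2 signal (y axis, with its own range in each panel) of the 7 called members and of Aox1 in each array, over the 4 time points from 0 min (untreated) to 4 h of TGF-β1. Each line is a replicate. All lines end at 4 h below their value at 0 min, and replicate 1 lies above the other replicates in every panel except that of Aox1.

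The promoters of Ces2a and Fmo5 are shown because they are the windows of called members that hold the SMAD box. They are read from RefSeq in the same way as above, at chr8:104733753-104734052 for Ces2a and chr3:97628769-97629068 for Fmo5 on the plus strand of GRCm38.p6, and capitals again mark CAGAC on either strand.
Ces2a: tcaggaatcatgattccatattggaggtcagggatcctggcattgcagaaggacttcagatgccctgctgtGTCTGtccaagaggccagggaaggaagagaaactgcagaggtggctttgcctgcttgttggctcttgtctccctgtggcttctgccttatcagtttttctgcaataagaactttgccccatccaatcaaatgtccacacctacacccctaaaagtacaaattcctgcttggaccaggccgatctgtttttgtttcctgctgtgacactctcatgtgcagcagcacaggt
Fmo5: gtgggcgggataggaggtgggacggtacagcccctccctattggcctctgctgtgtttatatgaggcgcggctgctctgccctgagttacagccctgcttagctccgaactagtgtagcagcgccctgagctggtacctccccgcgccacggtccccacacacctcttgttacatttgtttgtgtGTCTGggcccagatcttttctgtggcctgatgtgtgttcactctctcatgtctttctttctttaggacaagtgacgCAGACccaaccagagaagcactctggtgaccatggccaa
Ces2a holds 1 match and Fmo5 holds 2. The SMAD box was in 2 of the 7 windows of called members. RefSeq windows were matched for 40 of the 53 member genes, 45 windows in all, of which 42.2% hold the SMAD box, against 49.6% of all windows. The full SMAD palindrome GTCTAGAC was in 0 of the 45 member windows and in 0.213% of all, and the AP-1 site was in 8.89% of the member windows. These shares are of the order of those over all promoters and say nothing of binding.

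Before 4 h, no member was called. At 2 h limma called 0 of the members and 0% of all probe sets, and at an unadjusted p under 0.05 it gave 4 members (7.02%), against 6.28% of all. They were Aldh1a1 and Fmo2, higher, and Aox1 and Ces2a, lower. At 20 min limma likewise called 0 of the members and 0% of all, with 5 members (8.77%) at an unadjusted p under 0.05, against 8.46% of all: Aldh6a1, Aox1, Aox3 and Ces2a, lower, and Fmo2, higher. Both shares are near those of all probe sets. In an F test that took all 3 later times at once, 3 members (5.26%) were called, against 1.4% of all probe sets: Aox3 (limma, adjusted p = 0.0158), Aldh6a1 (0.0280) and Ces2a (0.0355).

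Each family was summed up by the median change of its members. The Ces median stood at -0.03, -0.01 and -0.20 at 20 min, 2 h and 4 h, the Aldh median at -0.01, -0.02 and -0.10, and the Adh median at -0.04, -0.02 and -0.13. For Aox the values were -0.08, 0.01 and -0.19, and for Fmo 0.07, 0.09 and 0.04. In single replicates at 4 h, the Ces medians were -0.33, -0.17 and -0.06 and the Fmo medians 0.20, -0.03 and -0.19. In Ces and Fmo the replicates thus lay as far apart as the family medians did, and a family's order by its median is not the same in each replicate. The Aldh medians lay closer together, at -0.11, -0.11 and -0.14. All these medians include members with a low signal. Over the members that reached the median level, those at 4 h were -0.44 in Aox, -0.42 in Fmo, -0.25 in Ces, -0.21 in Adh and -0.14 in Aldh. Aox had only 2 such members, Aox3 and Aox1, and Aox3 reached that level through replicate 1 alone. The 3 Fmo members that reached the median level had medians of -0.44, -0.41 and -0.33 in the replicates, but did not change alike. Fmo5 had -0.46, Fmo1 had -0.42 and was not called, and Fmo4 had 0.04, which is also the median over all 5 Fmo members. The difference between families was not tested, since the members of a family are not replicates.

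**Figure D3:**
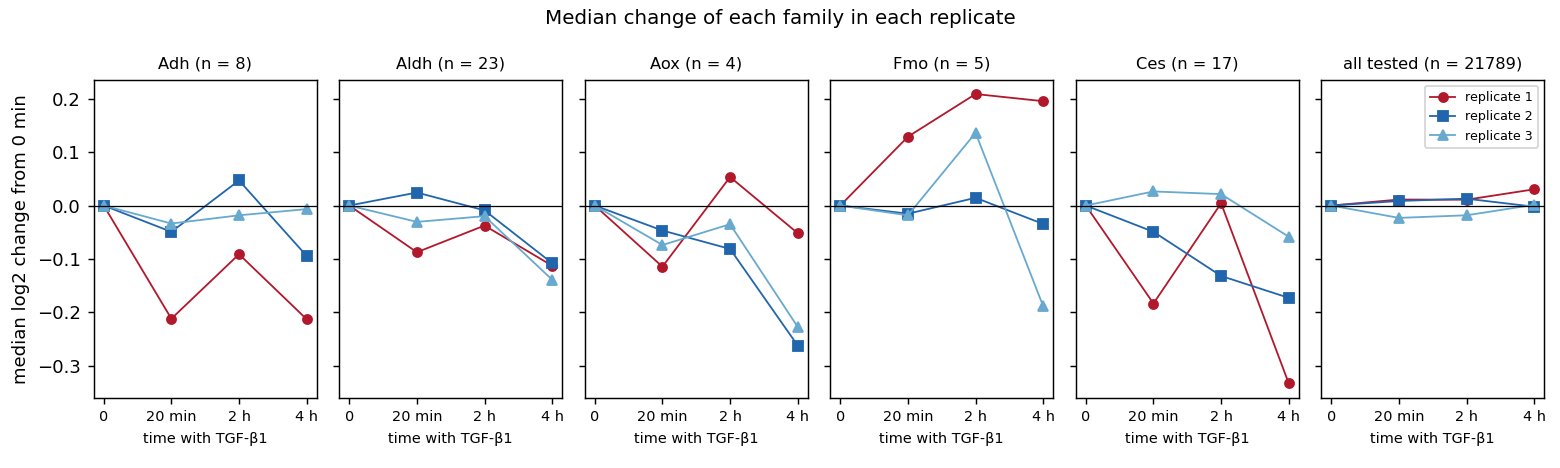
Median log2 change from 0 min untreated (y axis) of the members of each family, and of all probe sets tested, at each later time with TGF-β1, with a line for each replicate. At 4 h all 3 replicates lie below 0 in Adh, Aldh, Aox and Ces, while in Fmo they lie at 0.20, -0.03 and -0.19. Members below the median level are included.

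The gap between replicate 1 and the others differed from member to member. The 7 members that were at least 2-fold higher in it at all 4 time points were Aox3, Aldh4a1, Ces1e, Adh4, Ces1f, Aldh1a1 and Fmo5. In untreated cells their gaps were 4.50 for Aox3, 2.24 for Aldh4a1, 2.10 for Ces1e, 2.09 for Adh4, 1.76 for Ces1f, 1.73 for Aldh1a1 and 1.64 for Fmo5. Ces1e and Ces1f are neighbours and may share signal. The median size of the gap in untreated cells was 0.33 over all members and 0.13 over all probe sets, 0.52 and 0.23 over those of both that reached the median level, and 0.04 in the Aox family, while replicates 2 and 3 differed from each other by a median of 0.08 in the members and 0.07 in all.

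Fmo4 and Fmo2 differed the other way. Fmo4, a monooxygenase with a minor role in the liver, had 7.09, 8.13 and 8.48 in untreated cells, a gap of -1.21, and Fmo2 had a gap of -0.85. Their gene neighbour Fmo1 had 11.39, 10.55 and 10.43, so that this cluster held members that were higher and members that were lower in replicate 1.

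The change at 4 h was also larger in replicate 1 in many members. Of the 38 members that reached the median level, 24 had their lowest change in replicate 1, 6 in replicate 2 and 8 in replicate 3. Among the 7 members with the 2-fold gap the numbers with the lowest change in replicates 1, 2 and 3 were 5, 2 and 0, Aox3 and Fmo5 being the exceptions. Among the 7 members called lower at 4 h they were 3, 2 and 2. The paired fit favours members whose replicates change alike, so these numbers do not show that the calls are free of replicate 1.

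**Figure D4:**
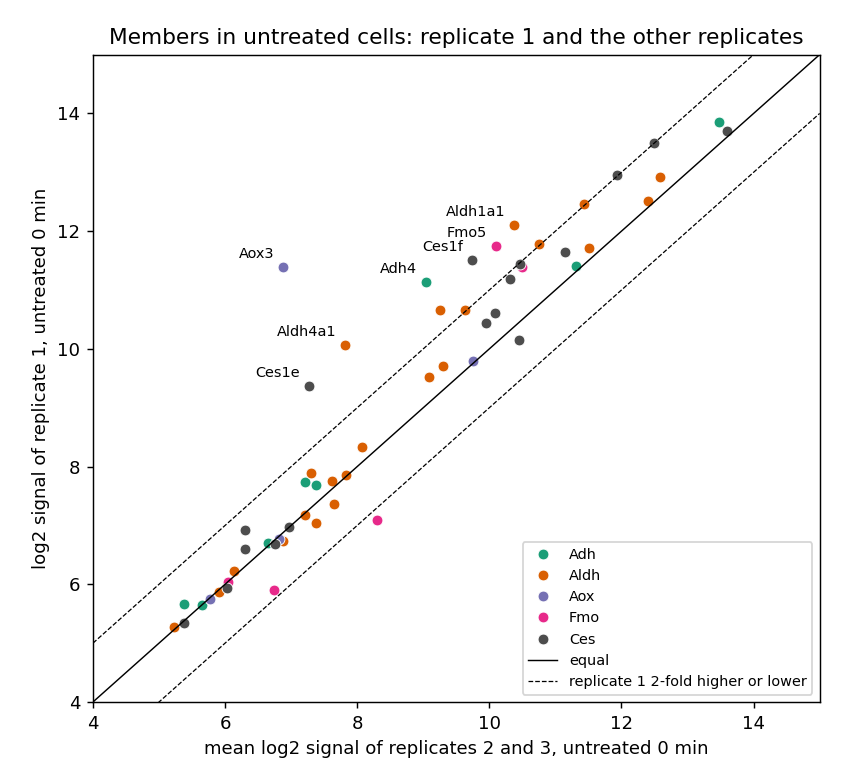
Log2 signal of each member in untreated cells at 0 min, in replicate 1 (y axis) and as the mean of replicates 2 and 3 (x axis). The solid line marks equal levels and the dashed lines a 2-fold difference, and names are given to the 7 members above the upper dashed line at all 4 time points. Aox3 lies farthest from the line, 4.50 above it.

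Other enzymes of the same kinds of reaction were described from a list. Of 36 measured reductases, hydrolases and cofactor genes, 8 were called lower at 4 h and 0 higher, with a median change of -0.19, beside 3.02% lower and 1.57% higher over all probe sets. Of these 36 genes, 35 reached the median level, where 5.43% of all probe sets were called lower. The largest changes were in the aldo-keto reductases Akr1c19, at -0.56, and Akr1c6, at -0.54, in Adhfe1, an iron-dependent alcohol dehydrogenase that oxidizes hydroxybutyrate, at -0.53, and in Akr1d1, the steroid 5β-reductase of bile acid synthesis, at -0.49 (limma, adjusted p from 0.00330 to 0.0183). Of 27 measured genes of retinoid metabolism and signaling, into which Adh and Aldh1a enzymes feed, 5 were called lower and 1 higher, with a median of -0.02. Lower were Cyp26a1, which breaks down retinoic acid, at -0.63, the retinol dehydrogenases Rdh9, at -0.54, and Rdh16, at -0.53, the retinal reductase Dhrs3, at -0.53, and Stra6l, a receptor for retinol-binding protein, at -0.37, while the receptor Rara was higher at 0.37. Of 11 measured transcription factors known to act on these families, 1 was called, the xenobiotic receptor Nr1i3, at -0.32 (limma, adjusted p = 0.0151).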

How the data were processed

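The authors hybridized RNA of 12 samples of mouse HPC to Affymetrix Mouse Gene 1.0 ST arrays and deposited log2 signals. Per the labels these were made by RMA with the Affymetrix Power Tools, whose versions are not given in the sources used here. RMA corrects for background, normalizes quantiles between arrays and summarizes each probe set. The methods of the study name FARMS and ComBat for its own analysis. They report a strong batch effect in the chips of mouse HPC and its adjustment with ComBat, without saying which arrays it set apart. The deposited RMA values may still hold this batch effect. Array values give no counts, and 3 arrays per group limit the precision. Of 35556 probe sets, 21789 with exactly 1 symbol in the platform table were tested, and 1621 with several symbols and 12146 not listed were left out.

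Each test used limma 3.58.1 under R 4.3.3 on all 12 arrays, with factors for time and for replicate number (6 residual and 5.39 prior degrees of freedom) and Benjamini-Hochberg adjustment over all probe sets tested. The F test stands in for betr. The replicate numbers of the labels were taken as pairs: deviations from the group means of same-numbered arrays correlated with r from 0.56 to 0.88 in 18 pairs, against -0.81 to 0.72 in 36 pairs of different numbers, so that the ranges overlap. Lists give a gene by its probe set with the highest mean signal. Named members are, per family, those called at 4 h, the one with the highest mean signal and the ones with the largest change in each direction. Other members with a known role in the liver, and those that stand out in a replicate or at a single time, were named after their values were seen. The members and lists were chosen with earlier results of these data known. P values measure the spread between these samples only.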

Additional observations from a re-analysis of the deposited data

How the results depend on the processing

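The number of members lower at 4 h, 7 in the fit described, was 0 with no replicate block, 0 with the replicate block as a random effect, 4 with the 0 min and 4 h arrays only, 3 with all 35556 probe sets tested, 14 with a trended and robust prior, 3 at an adjusted p under 0.01, 12 at one under 0.1 and 0 against a fold of 1.2. It was 0 to 4 without one replicate and 3 to 8 without one array: 3 without the 0 min array of replicate 1 or 2 or the 4 h array of replicate 1 or 3, and 4 when replicate 3 lacked its 20 min array or replicate 2 its 4 h array. The median change of the members was -0.24 over those at or above the median level and -0.0876 to -0.174 without one replicate. The call at 2 h without replicate 1 (1 in place of 0) was Ces2a. The time course test, with 3 members called, gave 0 with no replicate block, with the random block and with all probe sets, 5 with the trended prior and 0 to 3 without one replicate. The 1 member lower between 2 h and 4 h became 0 with no replicate block, with the random block, with all probe sets, with array weights and without any one replicate, and 2 with the trended prior. The cause was not tested, apart from fewer arrays or more probe sets where the setting itself gives them.

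For the 18 members named by the rule, the change kept its sign and its side of the threshold in 179 cases, was no longer called in 42, became called in 8 and turned its sign in 1, the probe set of Aldh3b3 at 0.16, which ranged between -0.031 and 0.265 without one replicate and was negative without replicate 3. Only the 7 called members can lose a call, so all 42 lost calls are theirs. The 179 cases include those of members that were not called at first and only stayed so. Aox3, Aldh6a1 and Ces2a were called in 21 of 26 alternatives each, Fmo5 in 14, Aldh1l1 and Ces3a in 9 and Aldh8a1 in 8. The 26 also hold the fold test and fits without a single array, which the cases above do not. Leaving out a 20 min or 2 h array does not alter the change at 4 h. Aox3, Aldh6a1 and Ces2a lost the call with no replicate block, with the random block, against a fold of 1.2 and without replicate 2 or replicate 3. The replicate block as a factor removes the gap between replicate 1 and the others, and with no replicate block the adjusted p of these 7 was 0.996 in limma.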
